A study of Oryza sativa with 60 samples.

Results

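Rice moves carbon as sucrose, and 3 small gene groups handle it at the sink end and along the way: the sucrose synthases SUS1 to SUS4, the sucrose transporters SUT1 to SUT5, and the cell wall invertase GIF1. These 10 genes were taken by identifier from an expression table of 38978 genes, and all 10 passed the filter of 1 TPM (a transcript level normalised for gene length and library size) in at least 2 libraries, as did 29987 genes in all. SUT3 and SUT5 passed it on few libraries. SUT3 reached 1 TPM in 2 libraries, both from panicle, and SUT5 in 6. A search of the accompanying table of pseudouridine (Ψ) sites by gene span and strand returned 18 sites in 5 of the 10 genes, out of 9126 listed sites.

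The study mapped Ψ in Oryza sativa cv. Nipponbare by bisulfite-induced deletion sequencing (BID-seq), in which bisulfite-modified Ψ leaves a gap in the read. It held 60 samples in 12 groups, each with 2 untreated input and 3 bisulfite-treated samples. The groups were radicle and plumule 48 h after germination in light or in dark, and seedlings at 2 weeks and at 8 days. The others were straw, panicle and flag leaf at heading, and embryo, endosperm and flag leaf at 10 days after anthesis (10 DAA). Germination was on MS medium, the labels name no genetic change, and light was the single treatment. Expression was given for 24 libraries, 2 in each group. Their names do not say whether they were input or treated samples, and nothing in the labels says that 2 libraries of a group came from separate plants, so the p-values below measure the spread between these libraries.

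Sucrose synthase splits sucrose reversibly into UDP-glucose and fructose, and in cereal grain it opens the route from imported sucrose to starch. Invertase splits sucrose irreversibly into glucose and fructose, and GIF1 does so in the cell wall, where its loss in rice impairs grain filling. SUT proteins carry sucrose across membranes together with protons: SUT1 acts at the plasma membrane of phloem and of the filling grain, and SUT2 at the vacuole membrane, from which it releases stored sucrose.

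Of the 18 Ψ sites, the sequences of 6 are printed here, of which 4 pair up between genes. The rest are those of SUS1 sites that passed the authors' filter in 5 tissues. Each is the 7 bases around the site as listed, 5′ to 3′ on the strand of the gene, with the modified base in capitals, at its position on IRGSP-1.0.
SUS1 chromosome 3, 16304164, minus strand: ggtTcca
SUS3 chromosome 7, 25432293, plus strand: ggtTcca
SUS2 chromosome 6, 4800430, minus strand: gttTctg
SUS3 chromosome 7, 25434678, plus strand: gttTctg
SUS1 chromosome 3, 16301677, minus strand: gacTctg
SUS1 chromosome 3, 16302117, minus strand: gtgTctg
The heptamer ggtTcca was thus found in both SUS1 and SUS3, and gttTctg in both SUS2 and SUS3. Among all 9126 sites, ggtTcca occurred 30 times (0.329%) and gttTctg 37 times (0.405%). A GUUC stretch is the known preference of the Ψ synthase Pus4 in yeast and of TRUB1 in mammals, which is given as background to ggtTcca and was not tested here.

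Depth, estimated from the smallest steps of TPM times gene length, lay between 2109737 and 9006629 read equivalents per library. Marker lists, whose identifiers could not be checked against an annotation here, were highest where their names place them: 4 embryo markers in embryo (25675 and 25882 TPM summed), 7 endosperm markers in endosperm (35912 and 37524 TPM), 5 panicle markers in panicle (1660 and 1612 TPM), 5 green leaf markers in seedlings and flag leaf, and 3 root markers in radicle. In each radicle library 2 of the 3 root markers reached 1 TPM, so the root sums rest on those 2. One library stood apart. Replicate 1 of radicle in light correlated with the 2 endosperm libraries at r = 0.896 and 0.897 across genes, against 0.739 for replicate 2, and its 7 endosperm markers summed to 26393 TPM, against 9.82 TPM in replicate 2. Its 4 embryo markers summed to 4048 TPM, against 17.8 TPM in replicate 2. Its 3 root markers summed to 267 TPM, against 508 TPM in replicate 2, so root transcripts were present in both. SUS3, SUS4 and SUT1 in this library reached 39.7%, 41.5% and 41.5% of their endosperm level. Because this library also widens the spread that the fit assigns to these 3 genes in every comparison, results are given with and without it. The 2 libraries of plumule in light, and likewise those of plumule in dark, did not differ beyond sampling noise (chi-square per gene 0.996 and 1.01). Each plumule pair was therefore also counted as 1 sample. On the same measure embryo and endosperm pairs had 1.02 each and the other pairs 1.04 to 1.14, except radicle in light with 8.01. With all genes rounded to whole reads, the pairs outside plumule and radicle in light had 1.01 to 1.51. They were kept as 2 samples each, so their p-values also rest on a spread not far above sampling noise. All libraries came from whole tissues, in which fewer cells of a type and less RNA per cell cannot be told apart.

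Among the sucrose synthases, SUS1 (Os03g0401300, chromosome 3, 16301279 to 16306089, minus strand) had the widest range in TPM. It was highest in plumule in light, at 1747 and 1728 TPM, followed by seedlings at 8 days with 1555 and 1588 TPM and plumule in dark with 1126 and 1143 TPM. It was lowest in flag leaf, at 5.95 and 8.16 TPM at 10 DAA and 16.8 and 16.4 TPM at heading. No 2 neighbours in the order of the 12 groups overlapped, with radicle in light taken from replicate 2. Its highest group mean was 246 times its lowest, a ratio larger than that of 98.96% of the 14951 genes with at least 1 TPM in every group.

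SUS2 (Os06g0194900, chromosome 6, 4796628 to 4802509, minus strand) was the most even of the 4, with group means between 27.5 and 398 TPM. Straw, at 407 and 389 TPM, and panicle, at 383 and 391 TPM, overlapped at the top. Embryo stood at the bottom with 25.6 and 29.5 TPM, while the next lowest group, flag leaf at 10 DAA, had 124 and 127 TPM. SUS2 was the leading sucrose synthase in 6 libraries, those of flag leaf at both stages and of panicle.

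SUS3 (Os07g0616800, chromosome 7, 25429639 to 25435132, plus strand) was a seed gene in these libraries. Endosperm had 524 and 517 TPM, embryo 129 and 123 TPM, and panicle 12.3 and 11.9 TPM. Every other group lay below 4 TPM, with the exception of replicate 1 of radicle in light, where SUS3 stood at 207 TPM, against 1.42 TPM in replicate 2. In 14 libraries the genes Os07g0616750 and Os07g0616850, annotated over SUS3 on the opposite strand, summed to more TPM than SUS3 itself. SUS3 did not exceed 3.34 TPM in any of these, and whether counting used strand was not given in the sources used here, so its levels at this end are uncertain.

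SUS4 (Os03g0340500, chromosome 3, 12674467 to 12680655, minus strand) was also highest in endosperm, at 434 and 427 TPM, and was present in every library. Seedlings at 2 weeks came second, with 176 and 185 TPM, ahead of embryo with 131 and 134 TPM. The lowest values were those of plumule in light, at 7.16 and 6.81 TPM, which did not overlap with any group except plumule in dark, at 9.03 and 7.15 TPM.

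**Figure D1:**
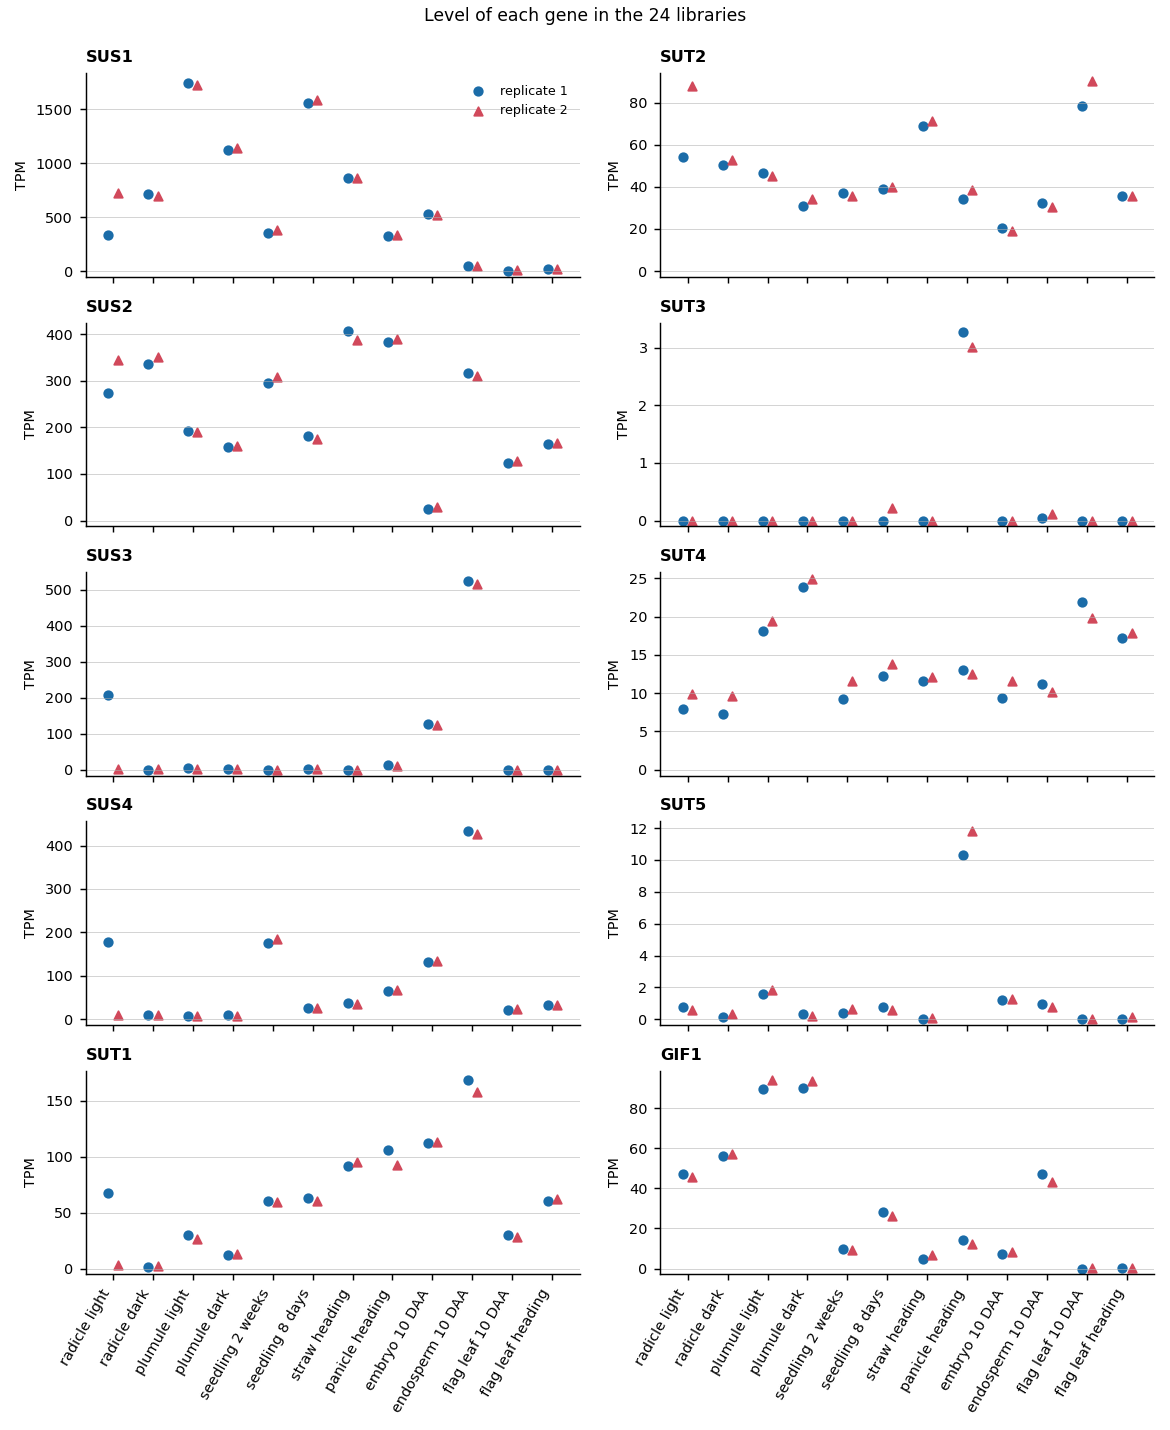
TPM of each of the 10 genes (vertical axes, linear) in the 12 groups (horizontal axis), with 1 point per library and replicate 1 drawn as circles and replicate 2 as triangles. In radicle in light the replicates part: replicate 1 has 207 TPM of SUS3 and 178 TPM of SUS4 while replicate 2 has 1.42 and 10.4 TPM.

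Of the transporters, SUT1 (Os03g0170900, chromosome 3, 3797698 to 3804132, minus strand) had the largest range in TPM. Its order ran downward through endosperm (169 and 158 TPM), embryo (112 and 113 TPM), panicle (106 and 92.8 TPM) and straw (91.9 and 95.6 TPM), the last 2 overlapping. Radicle in dark closed the order with 1.12 and 2.07 TPM. The ratio of the highest to the lowest group mean was 103, larger than in 97.4% of the genes present in every group.

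SUT2 (Os12g0641400, chromosome 12, 27513968 to 27518105, minus strand) and SUT4 (Os02g0827200, chromosome 2, 35548813 to 35553439, plus strand) were found in every library at steadier levels. SUT2 lay between 19.0 and 90.4 TPM. Its highest groups were flag leaf at 10 DAA, with 78.2 and 90.4 TPM, and replicate 2 of radicle in light with 87.8 TPM. SUT4, another proton-coupled sucrose transporter, lay between 7.23 and 24.9 TPM and was highest in plumule in dark, with 23.8 and 24.9 TPM. Ratios of highest to lowest group were 4.47 for SUT2 and 2.88 for SUT4, against a median of 5.10 over the genes present in every group.

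SUT3 (Os10g0404500, chromosome 10, 13778846 to 13782611, plus strand) and SUT5 (Os02g0576600, chromosome 2, 22146429 to 22150147, minus strand) were low outside panicle. SUT3 had 3.27 and 3.02 TPM in panicle, was listed at 0 in 19 libraries and did not exceed 0.210 TPM in the other 3. SUT5 had 10.3 and 11.8 TPM in panicle, 1.61 and 1.83 TPM in plumule in light and 1.24 and 1.29 TPM in embryo, with less than 1 TPM elsewhere.

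GIF1 (Os04g0413500, chromosome 4, 20422171 to 20426921, plus strand) was highest in the germinating shoot. Plumule in light had 89.5 and 93.9 TPM and plumule in dark 89.9 and 93.6 TPM, and these groups overlapped. Radicle in dark followed with 56.1 and 56.8 TPM, and endosperm, with 47.0 and 43.2 TPM, overlapped with the radicle in light. Flag leaf was at the other end, at 0 and 0.231 TPM at 10 DAA and 0.210 and 0.134 TPM at heading.

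TPM is normalised for length, so levels can be added within a family. The 4 sucrose synthases together gave 152 to 159 TPM in flag leaf at 10 DAA and 214 to 215 TPM at heading, and between 790 and 1949 TPM in the libraries of every other group. Within this sum SUS1 led in 16 libraries, SUS2 in 6 and SUS3 in the 2 endosperm libraries. In embryo SUS1 held 64.8% and 64.6% of the sum and SUS2 3.16% and 3.64%. Endosperm, the other seed tissue, had 3.42% and 3.46% SUS1, 39.7% and 39.8% SUS3 and 32.9% and 32.8% SUS4, with SUS2 making up the remainder. In flag leaf SUS2 held between 77.1% and 81.5% of the sum at either stage.

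**Figure D2:**
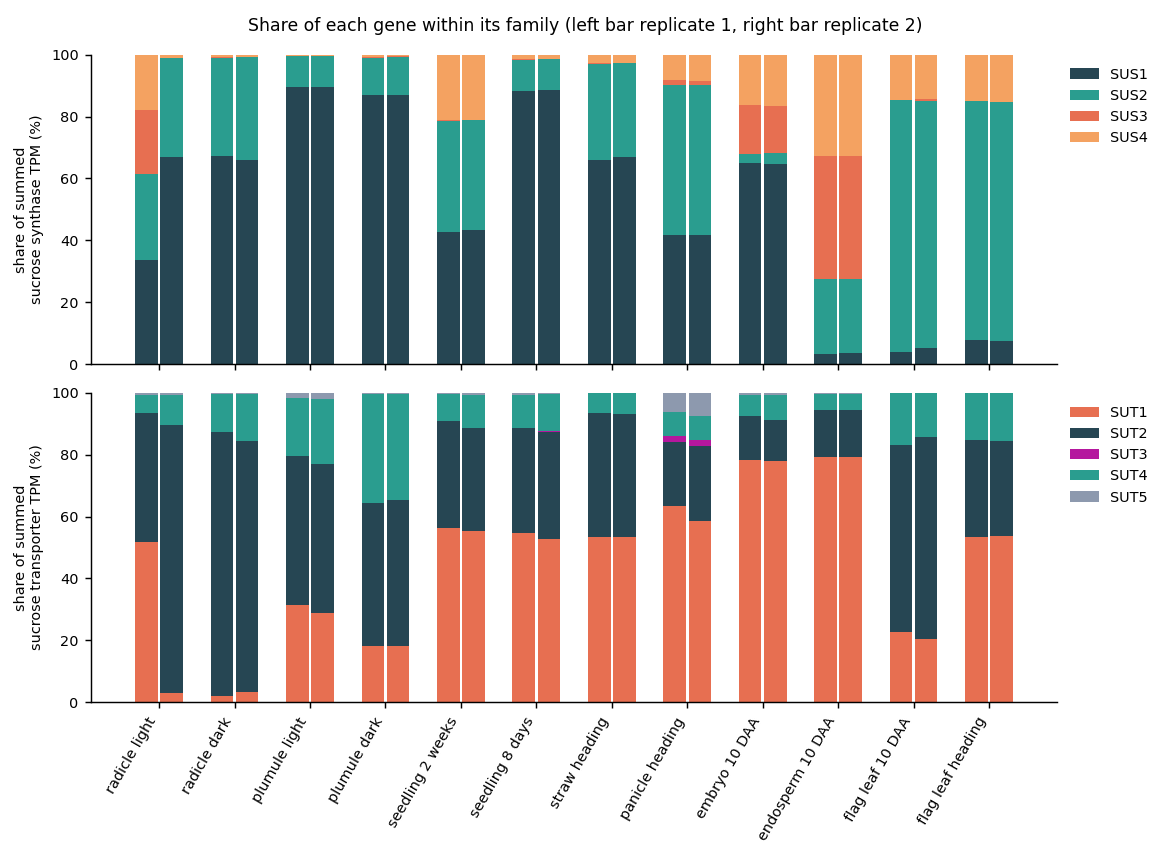
Share of each gene in the summed TPM of the 4 sucrose synthases (upper panel) and of the 5 SUT transporters (lower panel), in percent, with 1 stacked bar per library and the 2 libraries of a group side by side. SUS1 fills 89.6% of the upper bars in plumule in light and 3.42% to 3.46% in endosperm, and SUT1 fills 79.2% and 79.3% of the lower bars in endosperm and 1.91% to 3.19% in radicle in dark.

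The SUT sum varied less, between 58.8 and 213 TPM over the 24 libraries. SUT1 led in 15 libraries and SUT2 in 9. SUT1 held 78.0% to 78.4% of the sum in embryo and 79.2% to 79.3% in endosperm, whereas SUT2 held 81.3% to 85.5% in radicle in dark. In flag leaf the order of the leading pair turned with age: SUT2 held 60.3% and 65.4% at 10 DAA and 31.4% and 30.7% at heading.

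The importing grain was compared with the exporting leaf of the same stage. In endosperm against flag leaf at 10 DAA, 9 of the 10 genes passed an adjusted p of 0.05 in limma (Benjamini-Hochberg over 29987 genes), 7 higher and 2 lower, where 67.8% of all genes tested passed, 26.2% higher and 41.6% lower. The median over the 10 genes was 1.89 and that over all genes -0.18 on the log2(TPM + 1) scale, and all log2 differences below are on that scale, which understates the change of low genes. GIF1 stood at 47.0 and 43.2 TPM in endosperm and at 0 and 0.231 TPM in flag leaf, a log2 difference of 5.38 ± 0.14 (SE, limma adjusted p = 3.17e-14). SUS3 had the largest difference of the 10, 8.55 ± 1.19 (limma adjusted p = 9.83e-06), with flag leaf libraries listed at 0 and 0.942 TPM. SUS4 followed with 4.19 ± 0.73, SUS1 with 2.53 ± 0.22 and SUT1 with 2.46 ± 0.76. SUS2 rose by 1.31 ± 0.09 and SUT5 by 0.90 ± 0.14.

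SUT2 and SUT4 were lower in the endosperm. SUT2 fell to 32.2 and 30.4 TPM in endosperm, against 78.2 and 90.4 TPM in flag leaf (log2 difference -1.40 ± 0.15), and SUT4 to 11.2 and 10.2 TPM, against 21.9 and 19.8 TPM (-0.91 ± 0.15, or -0.39 under quantile normalisation, where it still passed). The groups did not overlap for either gene. SUT3 was near 0 in both tissues and did not pass (limma adjusted p = 0.352). These counts were the same without replicate 1 of radicle in light, in a fit in which 71.5% of all genes passed. The 5 green leaf markers summed to 3041 and 2977 TPM in endosperm, against 10245 and 10129 TPM in flag leaf, and their part in these differences was not tested.

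Embryo and endosperm, the 2 parts of the same grain, differed in their sucrose synthases. In embryo against endosperm 4 of the 10 genes passed, 1 higher and 3 lower, where 54% of all genes did, 27.6% higher and 26.4% lower. SUS1 had 525 and 523 TPM in embryo and 45.1 and 45.0 TPM in endosperm, a log2 difference of 3.51 ± 0.22 (limma adjusted p = 2.3e-09). No other of the 10 genes rose, although under quantile normalisation SUT5, at 1.24 and 1.29 TPM in embryo and 0.972 and 0.757 TPM in endosperm, also passed as higher. SUS2 went the other way, with 25.6 and 29.5 TPM in embryo and 317 and 312 TPM in endosperm (-3.47 ± 0.09, limma adjusted p = 1.58e-13). GIF1 fell by 2.42 on the log2 scale and SUT2 by 0.64. SUS3 (-2.04 ± 1.19), SUS4 (-1.70 ± 0.73) and SUT1 (-0.53 ± 0.76) did not pass in the fit over all 24 libraries, at limma adjusted p of 0.168, 0.0617 and 0.606. With replicate 1 of radicle in light left out their SE became 0.23, 0.08 and 0.12 and all 3 were lower in embryo, so that 7 of the 10 genes passed in that fit, where 59.9% of all genes did.

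Seed markers were compared between embryo and endosperm as well. The 7 endosperm markers stood in embryo at 4.45% to 20.9% of their endosperm level, and the 4 embryo markers in endosperm at 9.14% to 37.1% of their embryo level. Against that range, the embryo level of SUS2 was 8.77% of the endosperm level and that of GIF1 16.8%, both inside it, while SUS3 with 24.2%, SUS4 with 30.7% and SUT1 with 69.0% lay above it. In the other direction, the endosperm level of SUS1 was 8.59% of its embryo level, just below the lowest embryo marker. Whether carried-over tissue had a part in these levels, or in the difference of SUS1 between endosperm and flag leaf, was not tested.

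**Figure D3:**
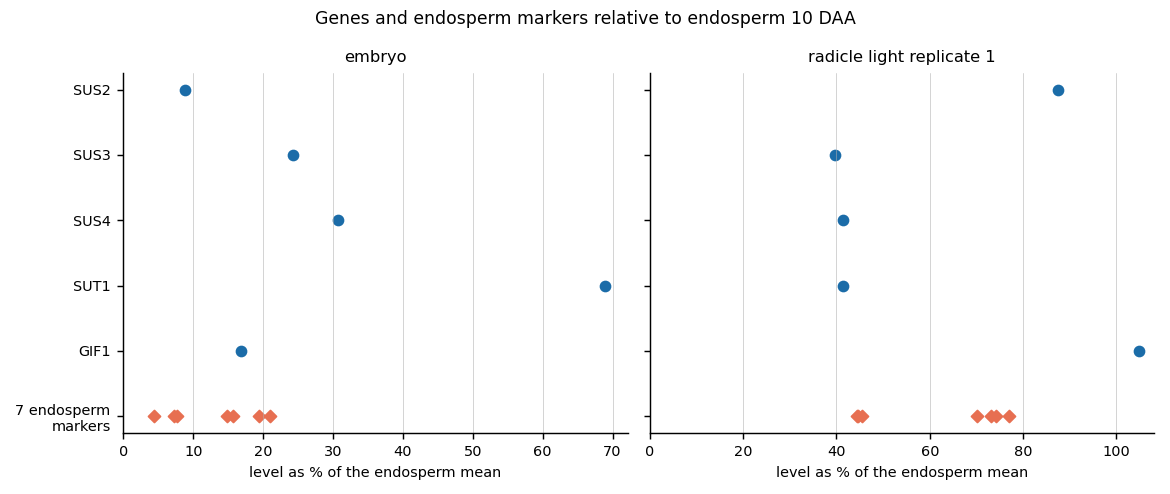
Level of 5 of the genes (blue circles) and of 7 endosperm markers (orange diamonds) as a percent of their mean in endosperm at 10 DAA, in embryo (left, mean of 2 libraries) and in replicate 1 of radicle in light (right). In embryo the markers span 4.45% to 20.9% and SUT1 is at 69.0%, and in the radicle library SUS3, SUS4 and SUT1 sit at 39.7%, 41.5% and 41.5%, below the lowest marker at 44.4%, while SUS2 and GIF1, which radicle in dark also expressed, sit at 87.5% and 105%.

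At heading, panicle and straw were each set against flag leaf, so that both comparisons share the flag leaf libraries. In panicle 7 of the 10 genes passed, 6 higher and 1 lower, where 60.1% of all genes passed, 37.1% higher and 23% lower. The median over the 10 genes was 1.64 and that over all genes 0.18. SUS1 reached 329 and 336 TPM in panicle, against 16.8 and 16.4 TPM in flag leaf (log2 difference 4.25 ± 0.22). GIF1 had 14.3 and 12.1 TPM in panicle and 0.210 and 0.134 TPM in flag leaf (3.59 ± 0.14). SUT5 (3.50 ± 0.14), SUS3 (3.62 ± 1.19), SUT3 (2.05 ± 0.10) and SUS2 (1.22 ± 0.09) were also higher and SUT4 was lower (-0.42 ± 0.15). SUT3 met the filter on low values through its panicle libraries alone, so its place among the 6 was fixed by that filter and is a description. The weakest of these, SUS3 and SUT4, had limma adjusted p of 0.0156 and 0.0204 and lost the call when any 1 of the 4 libraries compared was left out. With either panicle library left out SUT3 also lost its call, since it then no longer met the filter on low values. In the fit without replicate 1 of radicle in light, SUS4 and SUT1 passed as well, and 66.2% of all genes did. Of all called genes 61.8% were higher, or 45.7% under quantile normalisation, which also called 6 of the 10 genes higher and 1 lower.

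In straw 5 of the 10 genes passed, 4 higher and 1 lower, where 54.5% of all genes did, 28.5% higher and 26% lower. SUS1 stood at 865 and 864 TPM in straw, against 16.8 and 16.4 TPM in flag leaf, the largest difference of SUS1 in any comparison made (5.62 ± 0.22, limma adjusted p = 7.65e-12). SUS2 had 407 and 389 TPM in straw and 165 and 166 TPM in flag leaf (1.26 ± 0.09). GIF1 (2.55 ± 0.14) and SUT2 (0.96 ± 0.15) were higher and SUT4 was lower (-0.53 ± 0.15). SUS3, at 0.304 and 0.358 TPM in straw, and SUT3, listed at 0 in both tissues, did not pass. Without replicate 1 of radicle in light SUT1 also passed (0.60 ± 0.12), where 60.5% of all genes did.

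Between heading and 10 DAA the flag leaf itself changed. At 10 DAA against heading 3 of the 10 genes passed, 1 higher and 2 lower, where 30.6% of all genes did, 13.3% higher and 17.3% lower. SUT2 rose to 78.2 and 90.4 TPM at 10 DAA, against 35.5 and 35.7 TPM at heading (log2 difference 1.22 ± 0.15, limma adjusted p = 1.22e-05). SUS1 fell to 5.95 and 8.16 TPM, against 16.8 and 16.4 TPM at heading (-1.14 ± 0.22), and SUS2 fell by 0.39. SUT1, at 29.6 and 28.0 TPM at 10 DAA and 60.4 and 62.5 TPM at heading, showed no overlap but did not pass over all 24 libraries (-1.07 ± 0.76, limma adjusted p = 0.343). Without replicate 1 of radicle in light SUT1 (-1.07 ± 0.12) and SUS4 (-0.49 ± 0.08) were lower at 10 DAA as well, giving 5 of 10, where 38.4% of all genes passed.

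In seedlings the sucrose synthase set shifted with age. At 2 weeks against 8 days 4 of the 10 genes passed, 2 in each direction, where 51.4% of all genes did, 27.5% higher and 23.9% lower. SUS1 had 354 and 377 TPM at 2 weeks and 1555 and 1588 TPM at 8 days (log2 difference -2.10 ± 0.22, limma adjusted p = 9.38e-07). SUS4 went up to 176 and 185 TPM at 2 weeks, against 25.97 and 25.73 TPM at 8 days (2.76 ± 0.73, limma adjusted p = 0.00494), and SUS2 rose by 0.76 ± 0.09. Thus SUS1 made up 42.8% and 43.3% of the sucrose synthase sum at 2 weeks and 88.1% and 88.7% at 8 days. GIF1 was lower at 2 weeks, with 9.88 and 9.21 TPM against 28.2 and 26.4 TPM (-1.42 ± 0.14). None of the 5 SUT genes passed over all 24 libraries, although SUT4 (limma adjusted p = 0.0928) did without replicate 2 of the seedlings at 2 weeks, and SUT1 had 60.3 and 59.2 TPM at 2 weeks and 62.9 and 60.6 TPM at 8 days. SUS3 was at 1.04 and 0.794 TPM at 2 weeks and at 3.10 and 2.05 TPM at 8 days. Its log2 difference was -0.89 ± 0.23 in the fit without replicate 1 of radicle in light. The genes on the opposite strand summed to more than SUS3 in both libraries at 2 weeks and in replicate 2 at 8 days, so this difference is uncertain.

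**Figure D4:**
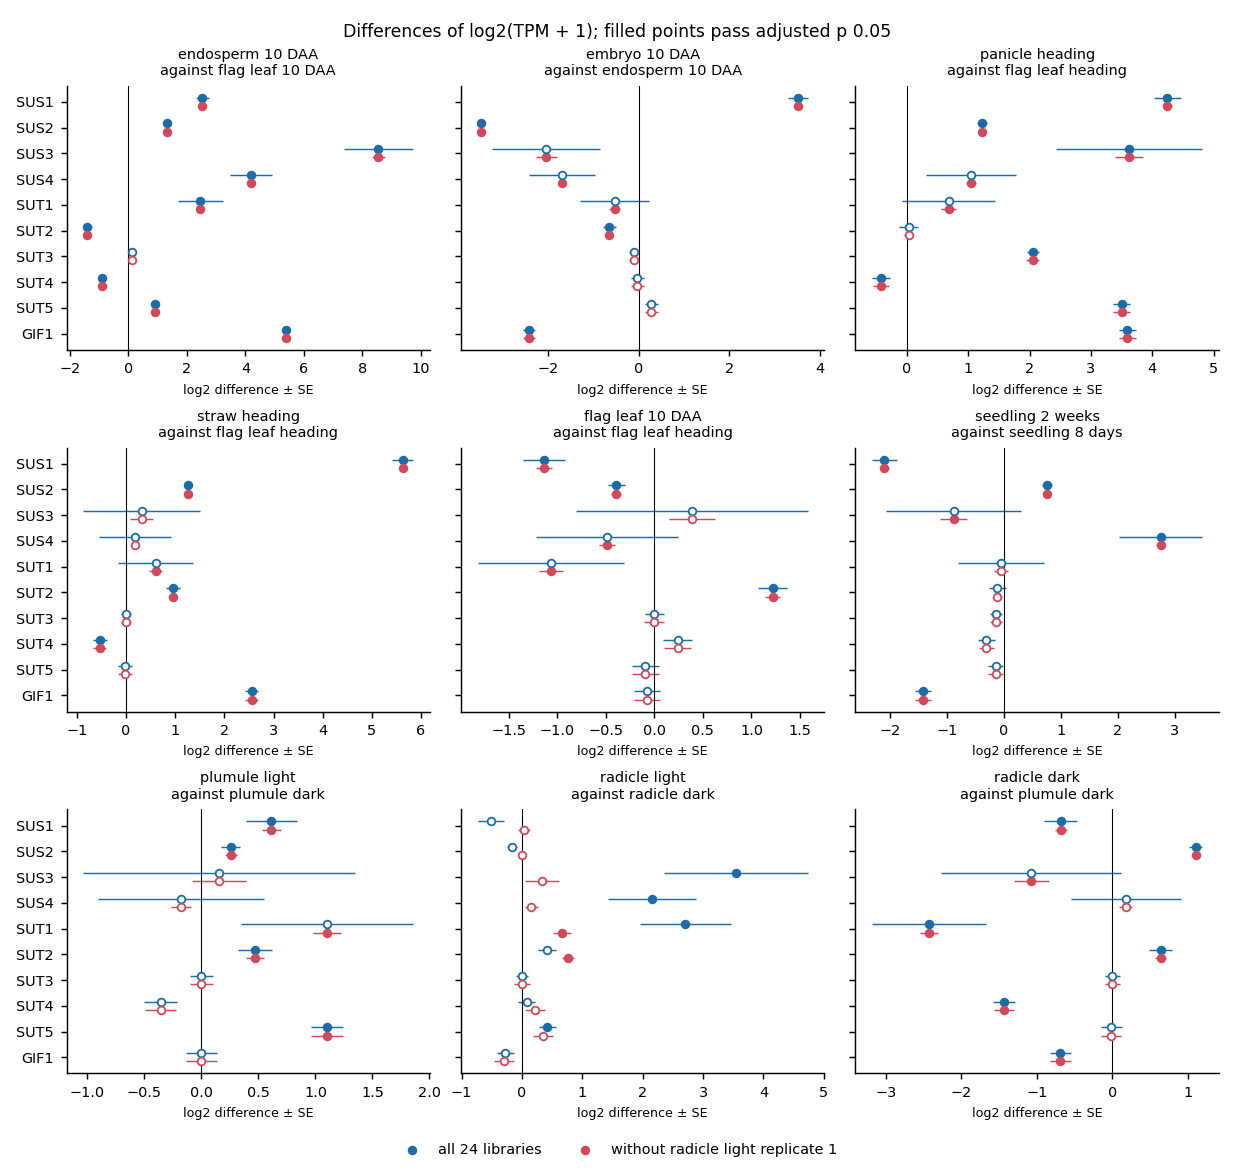
Difference of log2(TPM + 1) with its SE (horizontal axes, each panel on its own scale) for the 10 genes in 9 comparisons, over all 24 libraries (blue) and without replicate 1 of radicle in light (red), with filled points past an adjusted p of 0.05 in limma. The error bars of SUS3, SUS4 and SUT1 shrink without that library, from SE 1.19, 0.73 and 0.76 to 0.23, 0.08 and 0.12 in comparisons that do not involve radicle in light, and radicle in light against radicle in dark is the panel in which the points themselves move.

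The effect of light was measured in the germinating shoot and root. In plumule, 4 of the 10 genes passed in light against dark when each library was counted, all of them higher in light, where 27.4% of all genes passed, 20.1% higher and 7.36% lower. The median over the 10 genes was 0.21 and that over all genes 0.12. SUT5 had 1.61 and 1.83 TPM in light and 0.350 and 0.188 TPM in dark (1.10 ± 0.14, limma adjusted p = 3.19e-05). SUS1 (0.61 ± 0.22), SUT2 (0.47 ± 0.15) and SUS2 (0.26 ± 0.09) had limma adjusted p of 0.0491, 0.0281 and 0.039. With each plumule pair counted as 1 sample, SUT5 alone passed (1.10 ± 0.20, limma adjusted p = 0.00416), where 9.8% of all genes did, and leaving out any 1 of the 4 plumule libraries likewise left 1 gene. SUT1 was at 30.4 and 26.7 TPM in light and at 12.3 and 13.2 TPM in dark without overlap, and did not pass over all libraries (1.10 ± 0.76). The SE of this difference was 0.12 without replicate 1 of radicle in light, where each plumule library was counted. It was 1.15 with each plumule pair counted as 1 sample. Of all called genes 73.2% were higher in light, or 54.2% under quantile normalisation, which called SUS1, SUS2 and SUT5 higher and SUT4 lower. GIF1 had a log2 difference of 2e-04 ± 0.14 and its sign turned under quantile normalisation.

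In radicle the comparison of light with dark rests, for SUS3, SUS4 and the size of the SUT1 difference, on the library that stands apart. Over all libraries SUS3, SUS4, SUT1 and SUT5 passed, all higher in light, where 25.2% of all genes did, 13.9% higher and 11.3% lower. SUS3 had 207 and 1.42 TPM in light and 0.804 and 1.05 TPM in dark, so that 1 of the 2 light libraries carried the difference (3.54 ± 1.19, limma adjusted p = 0.0407). The same held for SUS4, with 178 and 10.4 TPM in light and 9.80 and 8.66 TPM in dark, and for SUT1, with 67.8 and 3.02 TPM in light and 1.12 and 2.07 TPM in dark. SUT5, at 0.760 and 0.594 TPM in light and 0.168 and 0.342 TPM in dark, was higher in both light libraries (0.42 ± 0.14). It rested there on 6.0 and 2.0 read equivalents in light and 1.0 and 2.5 in dark. Without the library that stands apart SUS3 (0.33 ± 0.29) and SUS4 (0.16 ± 0.10) did not pass. SUT5 kept a difference of 0.35 ± 0.17 and did not pass either. In that fit the log2 difference was 0.76 for SUT2 and 0.66 for SUT1. SUT1 rested on 10.9 read equivalents in light and 7.1 and 16.1 in dark, so its difference is uncertain. Light was then represented by 1 library, assumed to vary like the others. Leaving out radicle in dark replicate 1 ended all 4 calls and leaving out its replicate 2 ended those of SUS3 and SUS4. Without replicate 2 of radicle in light, light is the library that stands apart alone. The log2 difference was then 6.75 for SUS3, 4.75 for SUT1 and 4.14 for SUS4.

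The light effect was also compared between the organs. Its difference, plumule minus radicle, passed for SUS1 (1.13 ± 0.31), SUS2 (0.42 ± 0.12) and SUT5 (0.68 ± 0.20), the change being more positive in plumule, where 15.1% of all genes passed, 10.5% higher and 4.66% lower. Without replicate 1 of radicle in light the values were 0.58 ± 0.13, 0.26 ± 0.08 and 0.75 ± 0.22, with radicle in light then represented by 1 library. The difference passed for none of the 10 genes with the plumule pairs counted as 1 sample each, where 6.06% of all genes did.

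The 2 dark organs were compared with each other as well. In radicle against plumule, 6 of the 10 genes passed, 2 higher and 4 lower, where 59.3% of all genes passed, 24.2% higher and 35.1% lower. The median over the 10 genes was -0.35 and that over all genes -0.15. SUS2 had 337 and 352 TPM in radicle and 159 and 161 TPM in plumule (1.10 ± 0.09, limma adjusted p = 2.22e-08), and SUT2 had 50.3 and 52.7 TPM in radicle and 31.1 and 34.4 TPM in plumule (0.64 ± 0.15). SUT1 was lower in radicle, at 1.12 and 2.07 TPM against 12.3 and 13.2 TPM (-2.43 ± 0.76, limma adjusted p = 0.0114). SUT4 (-1.44 ± 0.15), GIF1 (-0.69 ± 0.14) and SUS1 (-0.69 ± 0.22) were lower too. With the plumule pair counted as 1 sample, SUT1 (limma adjusted p = 0.0578) and SUS1 (0.0655) no longer passed and 50.7% of all genes did. In the fit without replicate 1 of radicle in light 7 genes passed, SUS3 being lower as well (-1.07 ± 0.23, limma adjusted p = 0.000784), where 65% of all genes did. SUS3 was at 0.804 and 1.05 TPM in radicle and at 3.34 and 2.79 TPM in plumule. In all these libraries the genes on the opposite strand summed to more than SUS3, so its difference is uncertain. SUT1 also lost its call without radicle in dark replicate 1, and SUS1 without radicle in dark replicate 2 or plumule in dark replicate 2.

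Other identifiers of sucrose metabolism were counted beside the 10 genes. A list of 17 identifiers was drawn up from general knowledge of sucrose cleavage, synthesis and use, and their annotation could not be checked against the tables used here, so they are given by number. Of these 16 entered the fit. In panicle against flag leaf all 16 passed, 12 higher and 4 lower, where 60.1% of all genes passed, 37.1% higher and 23% lower, and the list median was 0.76. In endosperm against flag leaf 12 passed, 4 higher and 8 lower, near the 26.2% higher and 41.6% lower of all genes, and the list median was -0.36. Os02g0534400 and Os08g0113100 were picked from the list after their values were seen, so their differences are given as a description. Os02g0534400 fell by 4.79 on the log2 scale in endosperm against flag leaf and rose by 1.90 in plumule in light against dark. Os08g0113100, which reached 1403 TPM in plumule in light, rose by 1.45 in endosperm against flag leaf and by 2.61 in straw against flag leaf. In the remaining comparisons 10 of the 16 passed in embryo against endosperm (54% of all genes), 12 in straw (54.5%), 7 in the ageing flag leaf (30.6%) and 11 in seedlings (51.4%). The counts were 8 in plumule light (27.4% of all genes), 4 in radicle light (25.2%) and 9 in radicle against plumule (59.3%).

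Patterns over the 12 groups were compared by Pearson's r of log2(TPM + 1), with radicle in light taken from replicate 2, as a description. Among the 10 genes SUT3 and SUT5, which are both highest in panicle, were most alike (r = 0.90 over 12 groups). Group means of SUT3 did not exceed 0.105 TPM outside panicle, so this r rests mainly on the panicle. Next came SUS4 and SUT1 (0.76) and SUS1 and GIF1 (0.74). SUS3 and SUT2 ran most opposite (-0.62). Among 21862 genes with at least 10 TPM in a group, Os02g0694100 (0.98), Os07g0219300 (0.97) and Os10g0501900 (0.97) were nearest to SUS3, and 43 genes reached 0.95. Nearest to GIF1 were Os05g0277500 (0.98), Os01g0270300 (0.98) and Os03g0118400 (0.97), with 14 genes at 0.95 or more. SUT1 had 1 gene at that level, Os12g0479400 (0.95), ahead of Os01g0673300 (0.95) and Os01g0182900 (0.94). All these points share library depth and the same 12 tissues.

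Ψ sites were listed in SUS1 (11 sites), SUS3 (3), SUS2 (2), SUT1 (1) and GIF1 (1), and none of the 9126 lay within SUS4 or SUT2 to SUT5. Each site carries, in each tissue, a Ψ fraction, which the authors computed from the pooled libraries, and in 11 of the 12 tissues a flag for having passed their filter. These fractions have no replicate error and their depth is unknown, so no test is given. Of the 18 sites 17 passed in at least 1 tissue, 12 of them in 1 tissue alone, as against 8851 of all 9126 sites, of which 60.6% passed in 1 tissue alone. Of all genes in the fit whose identifier starts with Os, 17.3% held a site, and of those reaching 100 TPM in a group 52.4% did, as did 4 of the 5 members at that level. SUS1 with its 11 sites was 1 of 15 genes with that many or more.

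SUS1 sites passed only in tissues with at least 333 TPM of SUS1. The site ggtTcca passed in 7 tissues, with fractions between 12.7% in radicle in light and 19.1% in panicle among these, and did not pass in radicle in dark (10.7%), where SUS1 was also high. The site gacTctg passed in 5 tissues, at 28.9% in straw, 21.8% in radicle in dark, 21.7% in seedlings at 8 days, 21.4% in plumule in light and 19.6% in radicle in light. The site gtgTctg passed in 5 tissues at lower fractions, from 4.55% in seedlings at 8 days to 5.94% in radicle in light. In flag leaf, where SUS1 had 5.95 to 16.8 TPM, none of the 18 sites passed at either stage, where 18.6% of all sites did at 10 DAA and 17.9% at heading, and the fractions listed there ran to both ends: gacTctg had 73.6% at 10 DAA and 15.9% at heading, and ggtTcca had 23.5% at 10 DAA and 0% at heading. The SUS1 sites ataTttc and gcaTtcg were marked as passed in 1 tissue each although their fraction was listed as 0 in all 12 tissues, as was the case for 79 of the 84 sites at 0 everywhere in the table.

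**Figure D5:**
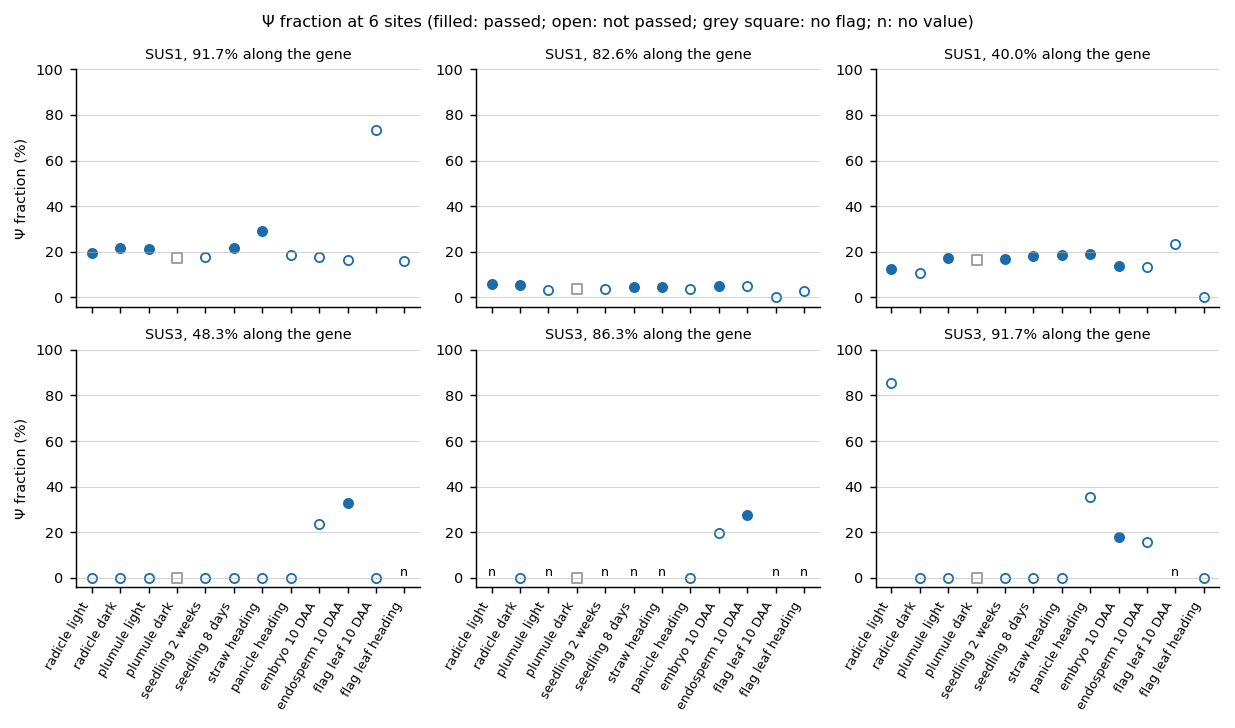
Ψ fraction in percent (vertical axis) in the 12 groups (horizontal axis) at the 3 SUS1 sites that passed in 5 tissues or more (upper row) and at the 3 SUS3 sites (lower row), titled by their place along the gene span from the 5′ end. Filled points passed, open points did not, grey squares have no flag and n marks no value. The SUS1 site at 40.0% of the span stays between 10.7% and 19.1% in all groups but the flag leaf. The SUS3 site at 48.3% has values above 0 in embryo (23.7%) and endosperm (32.8%) alone. SUS3 itself was low in the other groups, so a 0 there cannot be told from too few reads.

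In SUS3 the shared heptamer ggtTcca had a fraction of 23.7% in embryo, where it did not pass, and 32.8% in endosperm, where it did. It had 0 or no value in the other 10 tissues. SUS3 had at most 12.3 TPM in their libraries, replicate 1 of radicle in light apart, so a 0 there cannot be told from too few reads. At the same heptamer in SUS1 the fractions were 13.6% in embryo, where it passed, and 13.5% in endosperm, where it did not. Neither of these tissues had both copies passed. A second SUS3 site, agaTcat, followed the course of the first SUS3 site, with 19.6% in embryo and 27.6% in endosperm. The third, gttTctg, passed in embryo at 17.8% and had 15.8% in endosperm, and its highest listed value, 85.5% in radicle in light, did not pass. SUS3 was at 207 and 1.42 TPM in the expression libraries of that tissue, whose names do not tie them to the replicates pooled for the fraction. The SUS2 copy of gttTctg passed in seedlings at 2 weeks at 13.9%. SUT1 had its site ggcTctg passed in seedlings at 2 weeks at 21.3%, and GIF1 its site aggTcgg in plumule in light at 16.3%. Their highest listed fractions, 27.1% in radicle in dark for SUT1 and 17.1% in panicle for GIF1, did not pass. The heptamer ggcTctg was listed at 158 of the 9126 sites and aggTcgg at 52.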

How the data were processed

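Genes were matched by identifier and Ψ sites by gene span and strand on IRGSP-1.0, the build named in the submitters' notes. The members and gene lists were chosen with earlier results of these data known. The deposited expression values are TPM. The aligner and counter for them are not given in the sources used here. The deposited Ψ fraction was made by the authors from the gap ratio of pooled replicates through a calibration curve, and their flags, a further deposited column of other values, mark sites that passed a p-value-based filter. Gene length in bases came with the expression table.

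A pseudocount of 1 TPM was added before the log2 step, and 12 group means were fitted over 24 libraries by limma (version 3.58.1, R 4.3.3) with a trend for 29987 genes at 1 TPM or more in 2 libraries, with Benjamini-Hochberg adjustment at 0.05. The fit was tested on simulated data, where it recovered most large changes, and unchanged genes made up more of its calls than the threshold allows, so calls near 0.05 are less certain than their adjusted p. All 10 members are named. Of other genes, list members and the 3 nearest in pattern to SUS3, SUT1 and GIF1 are named, with Os02g0534400 and Os08g0113100 picked after their values were seen. Within a library 54.4% to 72.7% of values under 50 read equivalents were whole within the larger of 0.02 reads and 0.2% of the value. The others may be shared reads, so near-identical copies are uncertain. Alternatives were a pseudocount of 0.1 TPM, no filter, a filter of 5 TPM, quantile normalisation, only the libraries compared, a replicate block, each library left out, and plumule pairs averaged.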

Additional observations from a re-analysis of the deposited data

Results flagged for a closer look

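For SUS1, SUS2 and SUT5 the change with light was more positive in plumule than in radicle by the interaction term in limma, which 15.1% of all genes tested passed. The log2 change with light in plumule minus that in radicle was 1.13 ± 0.31 for SUS1 (limma adjusted p = 0.0219), 0.42 ± 0.12 for SUS2 (0.0312) and 0.68 ± 0.20 for SUT5 (0.0285). Each was the light minus dark difference of 2 plumule libraries a side set against that of 2 radicle libraries a side. Without replicate 1 of radicle in light, which carries seed markers, the values were 0.58 ± 0.13, 0.26 ± 0.08 and 0.75 ± 0.22. Radicle in light was then 1 library. SUT5 rested in that library on 2.0 read equivalents, with 1.0 and 2.5 in radicle in dark. Over all libraries SUT5 lost its call with a pseudocount of 0.1 TPM. With each plumule pair counted as 1 sample none of the 10 genes passed (limma adjusted p 0.139, 0.178 and 0.142 for these 3), where 6.06% of all genes did. Leaving out any 1 of the plumule or radicle in dark libraries ended all or most of the calls of SUS1, SUS2 and SUT5. Of all genes called 69.2% were higher in plumule, or 58.6% under quantile normalisation, which called the same number of the 10 genes.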

How the results depend on the processing

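The count of the 10 genes past the threshold stayed within 1.5 times the reported one in every comparison under the 5 TPM filter, quantile normalisation and the replicate block. The counts in this section show how calls moved with the processing and have no share of all genes beside them. Only the libraries compared gave 7 genes in embryo against endosperm, 5 in flag leaf at 10 DAA against heading, 0 in radicle light against dark and 0 for the difference of light effects. In radicle light against dark a pseudocount of 0.1 TPM and no filter each gave 2, and plumule pairs averaged gave 1. Averaging also gave 1 in plumule light against dark and 0 for the difference of light effects. Leaving out 1 library gave 9 in endosperm, 4 to 7 in embryo, 4 to 9 in panicle, 5 to 6 in straw, 3 to 5 in the ageing flag leaf, 4 to 5 in seedlings, 1 to 5 in plumule light, 0 to 6 in radicle light, 5 to 7 in radicle against plumule and 0 to 7 for the difference of light effects, the upper end coming from the fits without replicate 1, or for the last and for radicle light replicate 2, of radicle in light.

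Replicate numbers are shared by label only. Deviations of same-numbered libraries correlated between -0.047 and 0.012, and with a replicate block the counts were 9, 4, 7, 5, 3, 4, 4, 5, 6 and 3 in the order above, the one changed call being SUT2, which passed in radicle light.

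Sign changes touched genes that had not passed. Under quantile normalisation these were SUT2 in panicle (-0.0436), GIF1 in plumule light (-0.0841), SUT4 in radicle light (-0.0398), SUT5 in radicle against plumule (0.0146) and SUT2 in the difference of light effects (-0.0983). With 1 library left out the log2 difference ranged between -0.172 and 0.116 for SUT4 in embryo, -0.0582 and 0.111 for SUT2 in panicle, -0.112 and 0.0742 for SUT5 in straw, -0.228 and 0.0716 for GIF1 and -0.0909 and 0.867 for SUS3 in the ageing flag leaf, and -0.0339 and 0.0343 for GIF1 in plumule light. The range was -0.110 to 0.265 for SUT4, -1.07 to 0.0351 for SUS1 and -0.324 to 4e-04 for SUS2 in radicle light, -0.117 to 0.0831 for SUT5 in radicle against plumule, and -0.288 to 0.394 for SUT2 and -3.65 to 0.444 for SUT1 in the difference of light effects. Among called genes a pseudocount of 0.1 TPM raised the log2 difference by over 1.5 times for GIF1 in panicle (5.62) and straw (4.47), SUS3 (6.32) and SUT3 (5.02) in panicle, and SUT5 in endosperm (3.26), panicle (6.18) and plumule light (2.33), with the call kept, and for SUT5 in radicle light (1.17) and the difference of light effects (1.17), with the call lost. Quantile normalisation gave SUT4 -0.39 in endosperm and -0.72 in panicle, and SUS1 0.99 and SUT2 0.29 in plumule light, the last no longer past the threshold. The cause was not tested. Levels under about 1 TPM, as of SUT3 and SUT5 outside panicle, rest on few reads, and widening the span by 500 bases left 18 Ψ sites.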
